A study of Mus musculus with 8 samples.

Results

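The core circadian clock genes are described here in lungs of mice given mepenzolate or vehicle. The genes were fixed as a list of 10 names: Arntl (also called Bmal1), Clock, Npas2, Per1, Per2, Per3, Cry1, Cry2, Nr1d1 and Nr1d2. A gene was taken from the deposited table through a probe annotated with exactly 1 gene symbol, using the brightest probe where there were several. This found 9 of the 10 genes, each with 1 probe, out of 19937 genes in all, and no probe was named Npas2, which was not analysed. All 9 were bright enough to enter the test across 14953 genes.

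Whole lung RNA was hybridised to 1 Affymetrix array per sample. Mepenzolate, a blocker of muscarinic acetylcholine receptors, was placed into the trachea in phosphate-buffered saline, and the protocol given for all 8 samples names chloral hydrate anaesthesia (500 mg/kg), which the vehicle groups therefore share. The groups were mepenzolate at 25 h, vehicle at 25 h, mepenzolate at 7 h and vehicle at 7 h after dosing, with 2 arrays each (8 in all). Strain, sex, age and the clock time of dosing or of tissue collection were not given in the sources used here, and no source says whether the 2 arrays of a group are 2 animals. The p-values therefore rest on array-to-array spread that could be purely technical. The 2 times lay 18 h apart, so time since dosing, time since anaesthesia and time of day cannot be told apart.

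The circadian clock is a feedback loop of transcription that runs in almost every cell, including those of the airways and the alveoli. CLOCK, or its relative NPAS2, pairs with ARNTL and switches on genes that carry E-box motifs, among them the Per and Cry genes, whose proteins return to the nucleus and shut the pair off. The same pair switches on Nr1d1 and Nr1d2, whose products REV-ERB alpha and beta bind ROR elements and repress Arntl. In mouse tissues Arntl RNA is therefore known to peak when Nr1d1 and Per RNA are low.

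The promoters were searched for the motifs named in these links. RefSeq windows of 300 bases (GRCm38.p6, 250 bases before to 50 after an annotated start, written 5′ to 3′ on the gene's strand) were held for 9 of the 10 genes, Npas2 included and Per2 not. The genes had 1 to 3 windows each. The 5 shown were picked after the search because they hold an E-box, an E′-box, a D-box or a ROR element, with at least 1 gene of each role in the loop. They lie at chr7:113207261-113207560 on the plus strand (Arntl), chr11:69098699-69098998 on the plus strand (Per1), chr4:151044616-151044915 on the minus strand (Per3), chr10:85185005-85185304 on the minus strand (Cry1) and chr11:98775328-98775627 on the minus strand (Nr1d1). Capitals mark the motif matches.
Arntl: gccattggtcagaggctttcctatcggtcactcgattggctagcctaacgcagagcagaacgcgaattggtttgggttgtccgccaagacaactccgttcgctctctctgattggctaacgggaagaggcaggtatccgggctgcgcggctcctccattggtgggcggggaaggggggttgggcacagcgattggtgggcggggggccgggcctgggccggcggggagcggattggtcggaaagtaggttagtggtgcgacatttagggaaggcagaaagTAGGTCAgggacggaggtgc
Per1: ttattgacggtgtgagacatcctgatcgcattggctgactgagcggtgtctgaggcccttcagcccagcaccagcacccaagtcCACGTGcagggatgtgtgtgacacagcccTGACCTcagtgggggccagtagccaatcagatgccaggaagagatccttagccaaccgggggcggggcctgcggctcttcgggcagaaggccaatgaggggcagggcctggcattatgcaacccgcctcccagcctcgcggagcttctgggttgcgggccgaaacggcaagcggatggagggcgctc
Per3: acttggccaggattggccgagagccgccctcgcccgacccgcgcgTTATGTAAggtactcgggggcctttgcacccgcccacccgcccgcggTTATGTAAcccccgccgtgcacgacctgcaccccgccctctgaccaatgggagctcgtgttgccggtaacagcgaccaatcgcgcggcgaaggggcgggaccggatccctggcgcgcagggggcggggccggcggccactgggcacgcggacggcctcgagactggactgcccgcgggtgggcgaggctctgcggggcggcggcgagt
Cry1: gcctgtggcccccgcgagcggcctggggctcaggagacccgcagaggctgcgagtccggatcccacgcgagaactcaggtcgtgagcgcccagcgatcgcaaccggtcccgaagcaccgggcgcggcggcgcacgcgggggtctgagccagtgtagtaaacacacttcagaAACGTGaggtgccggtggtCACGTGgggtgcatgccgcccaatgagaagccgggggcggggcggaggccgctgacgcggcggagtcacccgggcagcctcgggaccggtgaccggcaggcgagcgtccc
Nr1d1: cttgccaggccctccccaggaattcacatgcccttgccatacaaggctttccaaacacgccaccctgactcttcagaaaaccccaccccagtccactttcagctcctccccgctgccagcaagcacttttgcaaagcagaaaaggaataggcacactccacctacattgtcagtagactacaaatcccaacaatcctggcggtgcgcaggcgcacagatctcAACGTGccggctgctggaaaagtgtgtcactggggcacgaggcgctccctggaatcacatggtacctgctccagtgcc

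The Arntl window held TAGGTCA, the core of the ROR and REV-ERB element with its leading T, with its first base 30 bases after the start. Across all 32851 promoter windows of this length 2.61% held TAGGTCA on either strand. The shorter core AGGTCA, which TAGGTCA contains, stood in 16.3% of windows and in those of Arntl, Clock, Per1 and Nr1d2. The E-box CACGTG was found in 7.15% of windows, and among the clock genes in Per1 (first base at -166 from the start) and Cry1 (at -60). The E′-box CACGTT, read as AACGTG on the printed strand, was found in 4.68% of windows and in those of Cry1 (-79), Cry2 (-166) and Nr1d1 (-28). Per3 held the D-box TTATGTAA 2 times (-205 and -158), and 1.06% of windows held TTATGTAA or TTACGTAA. The CRE TGACGTCA stood in 1.79% of windows and in 0 of these 9 genes. The clock genes are counted here by gene, with a match in any of their windows. Counted that way over 27025 genes, the shares were 2.97% for TAGGTCA, 18.1% for AGGTCA and 8.09% for the E-box. They were 5.44% for the E′-box, 1.23% for the D-box and 2.03% for the CRE. Arntl, Clock and Per1 had several windows and held their matches in a single one. A match is a string of letters, not a measured binding site, and the arrays did not measure binding.

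The values below are log2 expression levels as the authors deposited them. Lung epithelium markers were present, all 9 above the filter on dim genes, and the surfactant gene Sftpc stood at 13.49 to 13.56 on the 8 arrays. Their summed level stayed between 0.98 and 1.02 times its mean over the arrays. The sum is of linear levels, so it mostly follows the brightest markers. Single markers spanned 0.07 (Sftpc) to 0.46 (Sftpd) in log2 level over the 8 arrays. Some arrays stood apart in markers of other tissues. The liver list, relative to its mean, stood at 2.22 on the second mepenzolate array at 7 h and at 0.76 to 0.87 on the others. The adipocyte list stood at 1.43 on the first mepenzolate array at 25 h and at 0.74 to 1.19 on the others. Over 8 marker lists 0 of 43 tested markers passed limma in any of the 7 comparisons. Replicate arrays correlated across probes at r = 0.988 to 0.993 and arrays of different groups at 0.988 to 0.993, a description over probes that share the same arrays.

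Time after dosing was the larger axis for the clock genes. Arntl was higher and Per1, Per2, Per3 and Nr1d2 were lower at 25 h than at 7 h, averaged over both treatments. Of the 9 genes 8 had an unadjusted p under 0.05, against 8.97% of all genes tested, and 5 passed limma (Benjamini-Hochberg adjusted over all 14953 genes, threshold 0.05), 1 higher and 4 lower, against 0.221% of all genes tested, 0.0401% higher and 0.181% lower. The 4 arrays at 25 h did not overlap the 4 at 7 h for 7 of the 9 genes, against 6.69% of all genes. The median absolute difference was 0.83 for the clock genes and 0.06 for all genes tested. The members were chosen with results of these data known, so these counts describe the list.

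Arntl (probe 10556463), the partner without which neither CLOCK nor NPAS2 drives the loop, had levels of 7.80 and 7.99 in mepenzolate lungs and 7.87 and 8.0 in vehicle lungs at 25 h. At 7 h it had 6.59 and 6.22 in mepenzolate lungs and 6.44 and 6.51 in vehicle lungs. All 4 arrays at 25 h were above all 4 at 7 h, by more than the spread within either time. The difference was 1.47 ± 0.09 (moderated SE, 4 arrays against 4), a 2.78-fold higher level at 25 h, with limma adjusted p = 0.00255. By moderated t it ranked 1 among all genes tested.

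Clock (probe 10530733), the DNA-binding partner of ARNTL, ran the same way with a smaller size. Its levels at 25 h were 9.56 and 9.35 in mepenzolate lungs and 9.49 and 9.47 in vehicle lungs, against 9.30 and 9.13 in mepenzolate lungs and 9.35 and 9.11 in vehicle lungs at 7 h. The second mepenzolate array at 25 h and the first vehicle array at 7 h were level to within rounding, so the times overlapped. The difference of 0.25 ± 0.08 did not pass (limma adjusted p = 0.374, 95% interval 0.06 to 0.43).

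**Figure D1:**
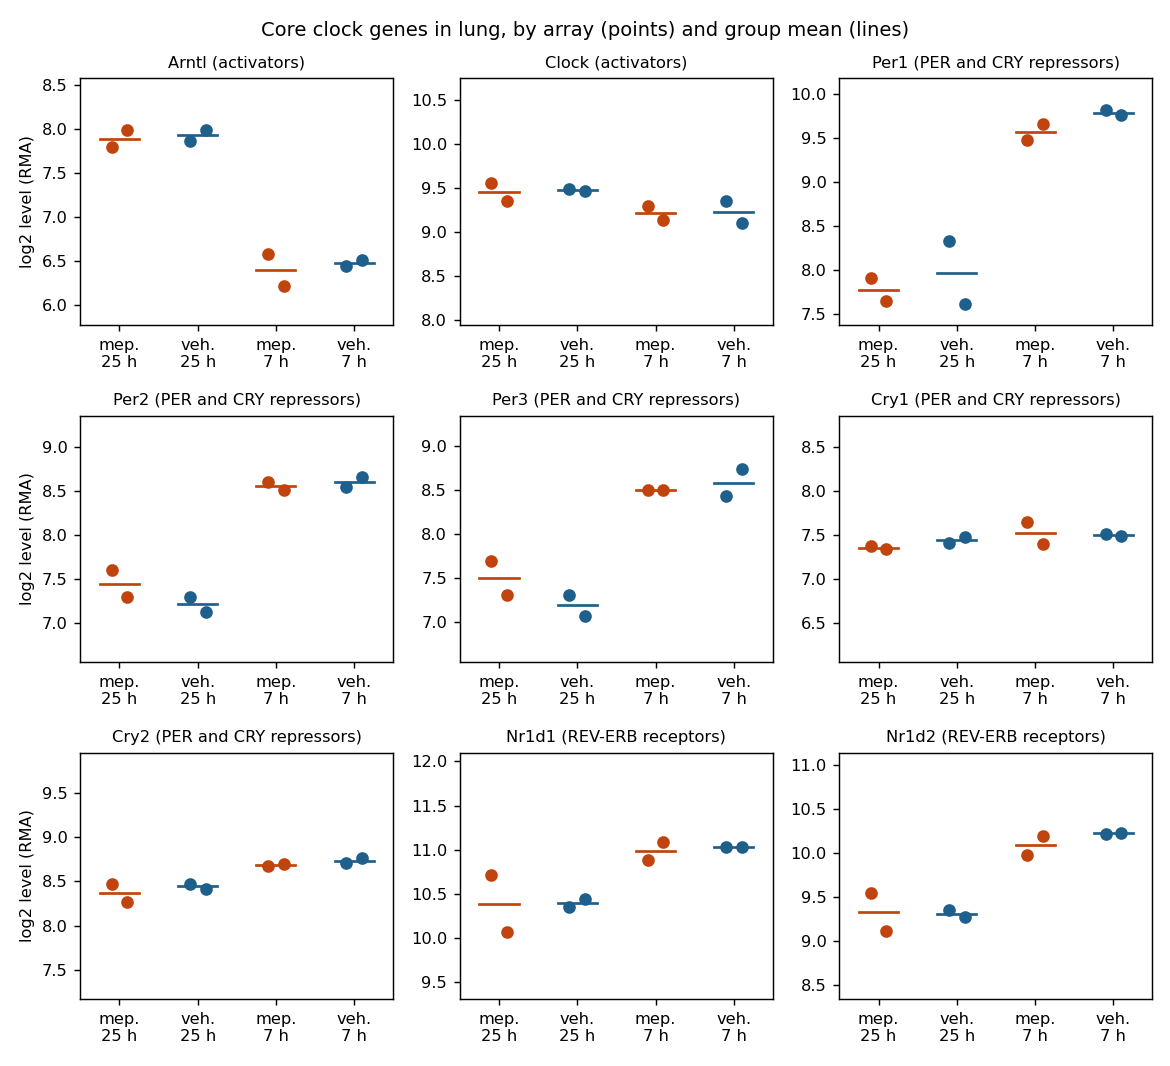
Log2 expression level (RMA, vertical axis, 2.8 units tall in every panel with its own offset) of the 9 measured clock genes in mepenzolate (mep., red) and vehicle (veh., blue) lungs at 25 h and 7 h. Points are single arrays, 2 per group, and lines are group means. Arntl stands at 7.80 to 8.0 at 25 h and 6.22 to 6.59 at 7 h, the 3 Per genes run the opposite way, and Cry1 stays between 7.34 and 7.65.

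The repressor genes of the PER family moved opposite to Arntl. Per1 (probe 10377439), the member known to respond also to glucocorticoids and to cyclic AMP signalling, had levels of 7.91 and 7.64 in mepenzolate lungs and 8.33 and 7.61 in vehicle lungs at 25 h. At 7 h it had 9.48 and 9.65 in mepenzolate lungs and 9.81 and 9.75 in vehicle lungs. Every array at 25 h was below every array at 7 h, and the first vehicle array at 25 h lay above the other three of that time. The difference was -1.80 ± 0.15, the largest by size of all genes tested, a 3.49-fold lower level at 25 h (limma adjusted p = 0.00433).

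Per2 (probe 10356601), whose loss shortens or abolishes rhythms of mouse behaviour, had 7.60 and 7.29 in mepenzolate lungs and 7.29 and 7.13 in vehicle lungs at 25 h. At 7 h it had 8.60 and 8.50 in mepenzolate lungs and 8.54 and 8.66 in vehicle lungs. The times did not overlap and the 7 h arrays lay close together. Per2 was 2.38-fold lower at 25 h (-1.25 ± 0.08, limma adjusted p = 0.00255).

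Per3 (probe 10518781), the third period gene and the one whose promoter window held the D-box matches printed above, had 7.70 and 7.31 in mepenzolate lungs and 7.30 and 7.08 in vehicle lungs at 25 h. At 7 h it had 8.50 and 8.50 in mepenzolate lungs and 8.43 and 8.74 in vehicle lungs. The pattern matched that of Per2, with the first mepenzolate array highest at 25 h in both genes. Per3 was 2.29-fold lower at 25 h (-1.20 ± 0.11, limma adjusted p = 0.00599).

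The cryptochromes, the light-insensitive partners of PER in mammals, differed less. Cry2 (probe 10485170) had levels of 8.47 and 8.27 in mepenzolate lungs and 8.48 and 8.42 in vehicle lungs at 25 h, against 8.68 and 8.70 in mepenzolate lungs and 8.71 and 8.76 in vehicle lungs at 7 h. These did not overlap, yet the difference of -0.31 ± 0.06 did not pass (limma adjusted p = 0.131, 95% interval -0.45 to -0.16). Cry1 (probe 10371400) had 7.37 and 7.34 in mepenzolate lungs and 7.41 and 7.47 in vehicle lungs at 25 h, against 7.65 and 7.39 in mepenzolate lungs and 7.50 and 7.49 in vehicle lungs at 7 h. The times overlapped, and the difference of -0.11 ± 0.07 was the smallest of the 9 genes (adjusted p = 0.727, 95% interval -0.27 to 0.04). Its window carried both an E-box and an E′-box.

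The REV-ERB receptors ran with the PER genes. Nr1d2 (probe 10417734, REV-ERB beta) had levels of 9.55 and 9.11 in mepenzolate lungs and 9.35 and 9.27 in vehicle lungs at 25 h. At 7 h it had 9.98 and 10.19 in mepenzolate lungs and 10.21 and 10.23 in vehicle lungs. It was 1.78-fold lower at 25 h without overlap (-0.83 ± 0.10, limma adjusted p = 0.0210). Leaving out a single array ended this call for 5 of the 8 arrays: the second mepenzolate array at 7 h (adjusted p = 0.0860), the first or second vehicle array at 25 h (0.0719 and 0.134) and the first or second vehicle array at 7 h (0.109 and 0.0860). The estimate itself stayed between -0.94 and -0.72 over all alternatives run.

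Nr1d1 (probe 10390691, REV-ERB alpha) had levels of 10.71 and 10.06 in mepenzolate lungs and 10.35 and 10.44 in vehicle lungs at 25 h, against 10.88 and 11.08 in mepenzolate lungs and 11.03 and 11.03 in vehicle lungs at 7 h. The arrays did not overlap between the times, but the mepenzolate pair at 25 h lay 0.64 apart, a wider gap than in 99.1% of genes in that group. The difference of -0.61 ± 0.13 (1.53-fold lower at 25 h) did not pass (limma adjusted p = 0.136). Without the first mepenzolate array at 25 h it was -0.78 and passed (adjusted p = 0.0159).

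Read within each treatment, the time difference had the same direction in all 9 genes. In mepenzolate lungs (2 arrays against 2) Arntl stood at 1.49 ± 0.13 and Per2 at -1.11 ± 0.12, and these 2 genes passed (limma adjusted p = 0.0391 and 0.0466), against 0.0268% of all genes (0.00669% higher and 0.0201% lower). An unadjusted p under 0.05 was reached by 7 of 9 clock genes and 6.37% of all genes. Per1 at -1.79 ± 0.21 (adjusted p = 0.0753), Per3 at -1.0 ± 0.15 (0.155) and Nr1d2 at -0.75 ± 0.14 (0.255) did not. Per1 passed at about the same size with the compared groups alone (adjusted p = 0.0257), with median centring (0.0199) and without either vehicle array at 25 h (0.0141). The call was lost for Arntl under 10 of 16 alternatives and for Per2 under 12 of 17, with estimates of 1.31 to 1.68 and -1.26 to -0.95. Leaving out single arrays gave 0 to 1 clock genes passing in mepenzolate lungs, 0 without either mepenzolate array at 25 h, the second at 7 h or either vehicle array at 7 h.

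In vehicle lungs Arntl (1.46 ± 0.13), Per1 (-1.81 ± 0.21), Per2 (-1.39 ± 0.12) and Per3 (-1.39 ± 0.15) passed, with limma adjusted p of 0.0158, 0.0287, 0.0158 and 0.0255, against 0.0869% of all genes (0.0201% higher and 0.0669% lower). An unadjusted p under 0.05 was again reached by 7 of 9, against 5.74% of all genes. Nr1d2 stood at -0.91 ± 0.14 (adjusted p = 0.118), and it passed under 6 of 17 alternatives: array weights (0.0120), the compared groups alone (0.0253), the robust trend (0.0322), median centring (0.0455) and without either mepenzolate array at 25 h (0.0463). The call was lost under 4 of 16 alternatives for Arntl, 9 of 17 for Per1, 4 of 17 for Per2 and 6 of 17 for Per3. The times did not overlap for any of the 9 genes within either treatment, a weak criterion with 2 arrays a side, met by 27.7% of all genes in mepenzolate lungs and 43.1% in vehicle lungs. Without the first vehicle array at 25 h 1 clock gene passed in vehicle lungs, and 0 passed without the second at 25 h or either at 7 h.

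Whether the time difference itself differed between treatments was tested as an interaction. Limma called 0 of 9 clock genes and 0% of all genes (smallest adjusted p = 1.00), and at an unadjusted p under 0.05 there were 0 clock genes and 400 of 14953 genes (2.68%). The largest estimates were those of Per3 (0.40 ± 0.22, 95% interval -0.10 to 0.89) and Per2 (0.29 ± 0.17, 95% interval -0.10 to 0.67), positive because the difference between times was nearer 0 in mepenzolate lungs than in vehicle lungs. Leaving out 1 array gave 0.20 to 0.59 for Per3 and 0.13 to 0.44 for Per2, lowest without the first mepenzolate array at 25 h and highest without the second.

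**Figure D2:**
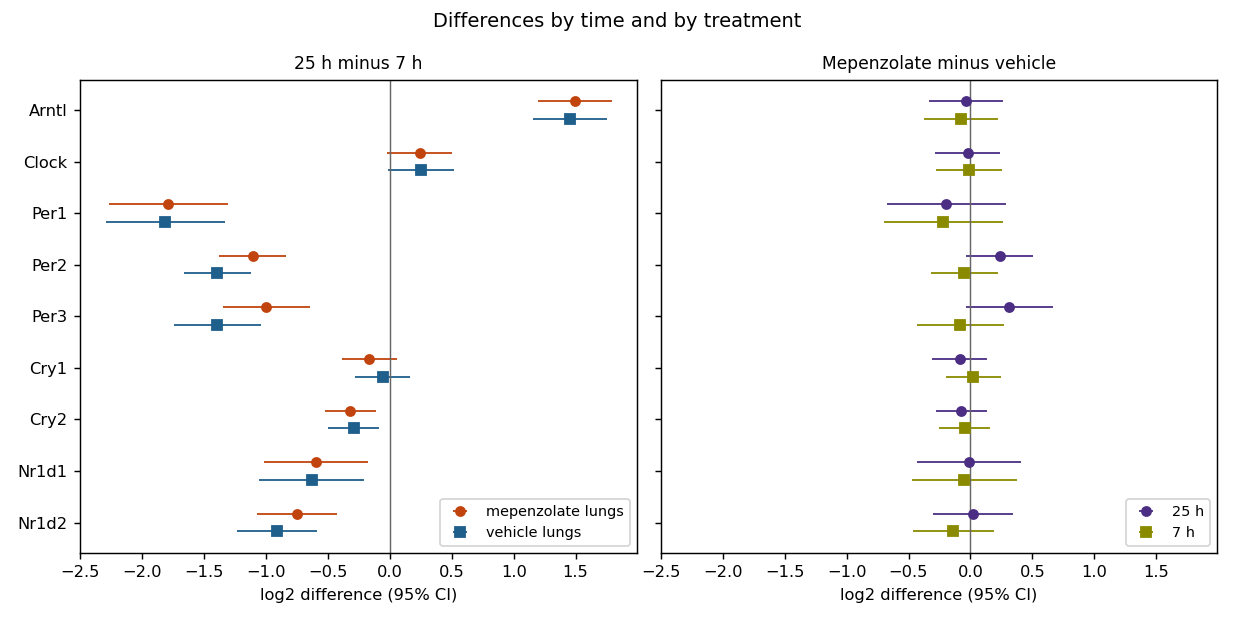
Log2 differences (horizontal axis) with 95% intervals for the 9 clock genes. On the left is 25 h minus 7 h in mepenzolate (circles) and vehicle (squares) lungs, and on the right mepenzolate minus vehicle at 25 h (circles) and 7 h (squares), from the limma fit on 8 arrays. Arntl lies near 1.5 and Per1 near -1.8 in both treatments on the left, while every interval on the right spans 0.

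Between treatments the clock genes stood close together at each time. The study asked how mepenzolate acts on inflammation and oxidative stress in the lung, with its gene set analysis at 25 h. At 25 h limma called 0 of 9 clock genes and 0% of all genes, and at an unadjusted p under 0.05 there were 0 clock genes and 599 of 14953 genes (4.01%). The 2 largest differences, mepenzolate minus vehicle, were those of Per3 (0.32 ± 0.15, 95% interval -0.04 to 0.67) and Per2 (0.24 ± 0.12, 95% interval -0.03 to 0.51), each with adjusted p = 0.979. Leaving out 1 array gave 0.12 to 0.51 for Per3 and 0.083 to 0.39 for Per2, lowest without the first mepenzolate array and highest without the second. Without the second vehicle array they were 0.20 and 0.16. Both mepenzolate arrays lay above both vehicle arrays in these 2 genes, barely so at the nearest arrays, and below them in Cry1 (-0.09 ± 0.10). This made 3 of 9 genes without overlap, against 36.6% of all genes.

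For the other genes at 25 h the estimates were smaller in size than their errors. Arntl averaged 7.89 ± 0.13 in mepenzolate lungs and 7.93 ± 0.09 in vehicle lungs (SD, n = 2 each), a difference of -0.04 with a 95% interval of -0.34 to 0.26. Nr1d1 averaged 10.39 ± 0.45 in mepenzolate lungs and 10.40 ± 0.06 in vehicle lungs, a difference of -0.01 with an interval of -0.44 to 0.41. Per1 stood at -0.19 ± 0.21, with a wide interval of -0.67 to 0.29. Cry2 stood at -0.07 ± 0.09, Clock at -0.02 ± 0.11 and Nr1d2 at 0.02 ± 0.14. Arntl, Clock, Cry2, Nr1d1, Nr1d2 and Per1 changed sign when 1 array was left out. For Per1 the estimate was 0.17 without the first vehicle array and -0.56 without the second.

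At 7 h limma again called 0 of 9 clock genes and 0% of all genes, with 0 clock genes and 357 of 14953 genes (2.39%) at an unadjusted p under 0.05. Per1 averaged 9.56 ± 0.12 in mepenzolate lungs and 9.78 ± 0.04 in vehicle lungs (SD, n = 2 each), the largest estimate of the 9 (-0.22 ± 0.21, 95% interval -0.70 to 0.26). Per1, Nr1d2 (-0.14 ± 0.14) and Cry2 (-0.05 ± 0.09) were lower in mepenzolate lungs without overlap, 3 of 9 genes against 23.7% of all genes. The remaining genes lay between -0.08 (Per3) and 0.02 (Cry1). Averaged over both times limma called 0 clock genes and 0% of all genes, with 0 clock genes and 563 genes (3.77%) at an unadjusted p under 0.05, and 0 of 9 genes were without overlap, against 2.41% of all genes. The comparisons between times and between treatments share arrays and are given side by side only.

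Per1 is known as a target of the glucocorticoid receptor, so a list of glucocorticoid-induced genes is set beside it. At 7 h, mepenzolate minus vehicle, of 13 tested genes of the list 12 had a negative difference, with a median of -0.34 against -0.01 for all genes, and 0 passed limma adjusted over all genes. The smallest p-values were those of Zbtb16 (-1.16 ± 0.22), Angptl4 (-0.60 ± 0.10) and Ddit4 (-0.43 ± 0.09). With time all 13 had a negative difference, 25 h minus 7 h over both treatments (median -0.43 against 0.0014 for all genes). Of these 4 passed, against 0.181% of all genes lower: Tsc22d3 (-0.81 ± 0.07), Zbtb16 (-1.39 ± 0.16), Angptl4 (-0.52 ± 0.07) and Klf9 (-0.47 ± 0.07). In vehicle lungs the median was -0.62, with 13 of 13 negative and 2 passing (0.0669% of all genes lower). In mepenzolate lungs it was -0.25, with 10 of 13 negative and 0 passing (0.0201% of all genes lower). The vehicle arrays at 7 h enter both the time comparison and that of mepenzolate against vehicle at 7 h. The part of this list in the Per1 values was not tested. In the same comparison at 7 h the platelet markers had a negative difference in 5 of 5 genes (median -0.50) and the cardiac muscle markers in 6 of 7 (median -0.46). Immediate early genes, which also share inputs with Per1, had a median of 0.04 with time and 0 of 9 passed.

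Genes linked to the clock outside the core were read from a list of 22, of which 19 were tested. Over both treatments 6 of the 19 passed limma, all lower at 25 h, against 0.181% of all genes lower, and their median difference was -0.14 against 0.0014 for all genes. The PAR-bZIP factors, which bind D-boxes and pass the rhythm on to metabolic genes, accounted for 3 of them. Dbp had levels of 8.97 and 7.96 in mepenzolate lungs and 8.10 and 8.03 in vehicle lungs at 25 h, against 9.91 and 10.06 in mepenzolate lungs and 10.02 and 10.09 in vehicle lungs at 7 h. The times were apart on every array, and the first mepenzolate array at 25 h lay well above the other three. Dbp stood at -1.76 ± 0.19 (adjusted p = 0.0101), Hlf at -1.21 ± 0.11 (0.00599) and Tef at -0.77 ± 0.06 (0.00276).

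The E-box repressors Bhlhe41 (-0.92 ± 0.08, adjusted p = 0.00599) and Ciart (-1.33 ± 0.18, 0.0428) and the clock-driven ubiquitin protease Usp2 (-0.74 ± 0.08, 0.0101) made up the rest. Bhlhe41 had 7.03 and 6.7 in mepenzolate lungs and 6.42 and 6.55 in vehicle lungs at 25 h, without overlap, as in 36.6% of all genes. This treatment difference did not pass limma (adjusted p = 0.979). At 7 h it ran the other way, with 7.49 and 7.53 in mepenzolate lungs and 7.72 and 7.66 in vehicle lungs. This was also without overlap, as in 23.7% of all genes, and did not pass. Wee1 (-0.68 ± 0.10, 0.0600) and the Arntl activator Rora (-0.37 ± 0.06, 0.0913) were lower without passing. Nfil3, which represses through the same D-boxes that the PAR-bZIP factors activate, had the opposite sign (0.41 ± 0.11, 0.215). Bhlhe40, the relative of Bhlhe41, stood at -0.41 ± 0.10 (0.187). The other 9 tested genes of the list, among them the kinases and ubiquitin ligase parts that act on PER and CRY proteins, lay between -0.14 and 0.07 and did not pass.

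**Figure D3:**
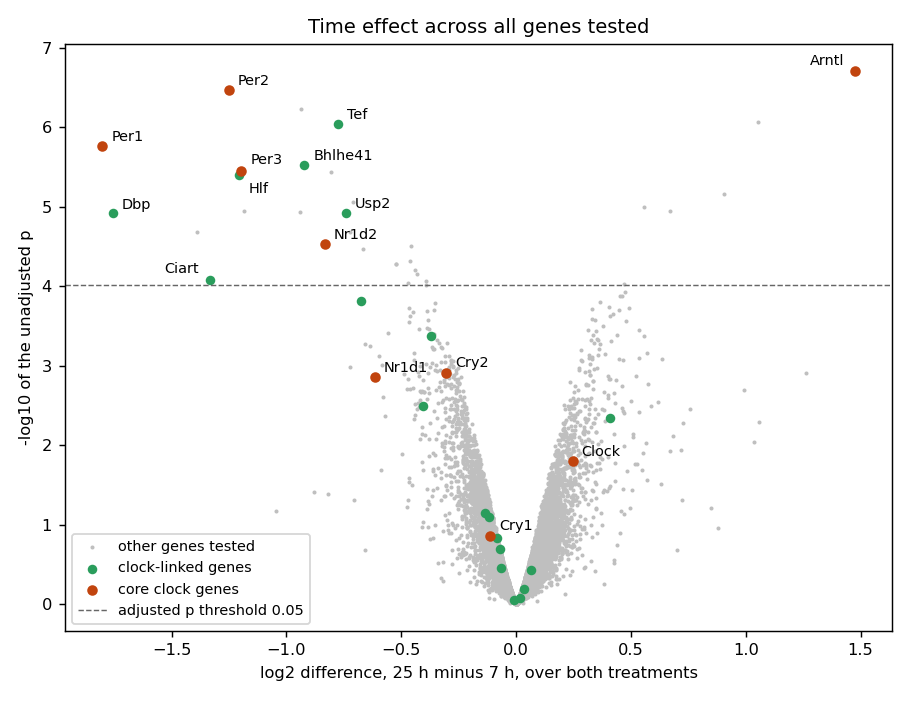
Log2 difference, 25 h minus 7 h over both treatments (horizontal axis), against -log10 of the unadjusted limma p (vertical axis) for 14953 genes. Core clock genes are red, clock-linked genes green and all others grey, and genes above the dashed line pass the adjusted threshold of 0.05. Arntl is the highest point, at the far upper right, and Per1, Per2, Per3 and Dbp at the upper left.

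Of the 33 genes that passed the time comparison over both treatments, 11 were core clock or clock-linked genes, 4 were on the glucocorticoid list and 18 were on neither. Of the 10 genes with the smallest p, 7 were core clock or clock-linked. Likeness to a clock gene was measured as the root mean square difference of values centred on each gene's mean over the 8 arrays. It was ranked among the 14944 tested genes outside the core clock list, so other core clock genes could not appear. Closest to Arntl, whose range was 1.78, were Adm (0.30), Spon2 (0.32), Snord53 (0.37), Ppp1r3c (0.42) and Ifi209 (0.42). Closest to Nr1d1, whose range was 1.02, were Ccn2 (0.095), Plekhf1 (0.12), Snai2 (0.12), Nr4a2 (0.13) and Errfi1 (0.13), the last also on the glucocorticoid list. None of the 10 was on the clock-linked list. Few genes of that list could lie close to Arntl, since 15 of its 19 tested genes were lower at 25 h.

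The arrays of one group were not alike in the clock genes. Of the 2 mepenzolate arrays at 25 h, the first lay nearer the 7 h levels than the second in 8 of 9 clock genes, Clock being the exception, and in 58.6% of all genes. Among the 28 other genes that passed the time comparison the share was 85.7%. The first array lay nearer 7 h levels, or farther on their side, in 3 of 9 clock genes in the mepenzolate pair at 7 h (14.3% of the 28), 6 of 9 in the vehicle pair at 25 h (75% of the 28) and 4 of 9 in the vehicle pair at 7 h (53.6% of the 28). In the mepenzolate pair at 25 h the first array lay above the second by 0.64 in Nr1d1, 0.43 in Nr1d2 and 0.39 in Per3. It lay above by 0.31 in Per2 and 0.26 in Per1, and below by 0.18 in Arntl. This array also had the adipocyte markers at 1.43 times their mean, whose part in these values was not tested. Without it Arntl stood at 1.52 over both treatments, Per2 at -1.33 and Per3 at -1.29, and 6 of 9 clock genes passed in place of 5.

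**Figure D4:**
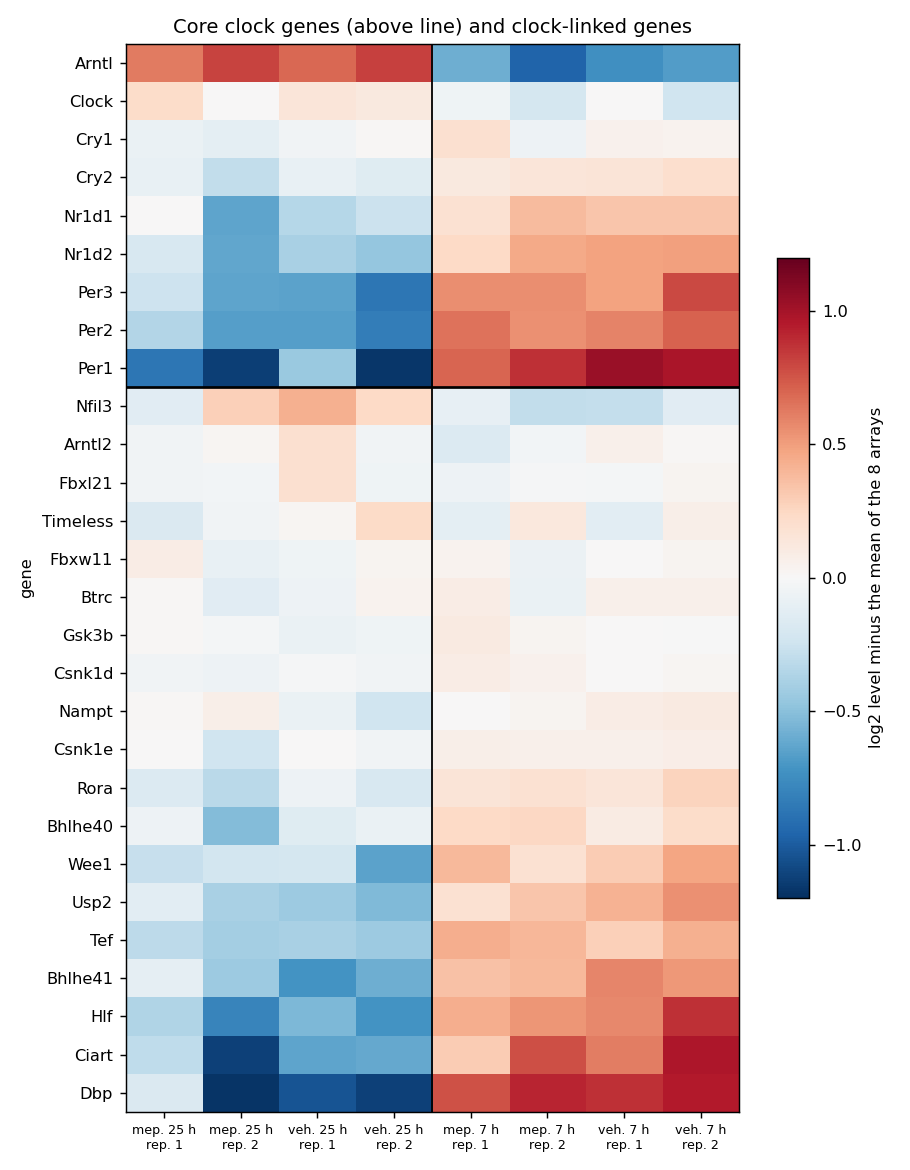
Log2 level minus the mean of the 8 arrays (colour, red above and blue below) for the 9 core clock genes and 19 clock-linked genes, 1 column per array, with 25 h left of 7 h. Arntl is red at 25 h and blue at 7 h, the Per genes, Dbp, Hlf and Ciart are the reverse, and the first mepenzolate array at 25 h is paler than the other three of its time in most of those rows, Per1 excepted.

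Some blood cell markers stood higher at 25 h. The 5 tested lymphocyte markers were all higher at 25 h (median 0.41), with a summed level of 0.93 to 1.34 at 25 h and 0.74 to 0.95 at 7 h relative to their mean. The 5 platelet markers were all higher as well (median 0.30) with a summed level of 0.95 to 1.27 at 25 h and 0.66 to 1.03 at 7 h. Within treatments the platelet median was 0.55 in mepenzolate lungs and 0.03 in vehicle lungs, and the lymphocyte median 0.67 in mepenzolate lungs and 0.17 in vehicle lungs. Neutrophil markers were mixed over both treatments, 3 positive and 2 negative of 5 (median 0.10). Within treatments 5 of 5 were positive in vehicle lungs (median 0.18) and 3 of 5 in mepenzolate lungs (median 0.04). None of these 15 passed limma. Whole lung mixes many cell types, so fewer cells of a type and less RNA per cell cannot be told apart, and the part of cell composition in the clock gene values was not tested.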

How the data were processed

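Total RNA of 8 whole lung samples was labelled with an Affymetrix kit, per the labels' protocols. The authors deposited log2 expression levels of 34760 probes, which the submitters' processing notes say were made with RMA (version not given in the sources used here), a method that evens out array distributions and compresses differences of dim genes. Values spanned 2.00 to 13.98 and array medians 6.70 to 6.77, with 0 identical arrays. Groups and replicate numbers were read from the sample titles. Of the probes 21640 carried 1 symbol, 1321 several and 11799 none here.

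Limma 3.58.1 (R 4.3.3) was fitted to the genes whose 8-array mean reached the 25th percentile (log2 5.93), with a mean per group and a shared spread (4 residual and 4.09 prior degrees of freedom). P-values were Benjamini-Hochberg adjusted over all 14953 genes tested. Errors are moderated standard errors unless named SD, and intervals are at 95%. The fit was tested on simulated data. Precision is limited by the number of arrays. Named genes were the listed clock genes and the genes of the other lists that passed or had the smallest p. Also named were the 5 genes outside the core clock list most like Arntl and the 5 most like Nr1d1. The members and lists were chosen with earlier results of these data known. Promoter windows came from RefSeq (GRCm38.p6).

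The alternatives were these: the replicate number as a block, all genes without a filter, the 50th percentile as filter, further quantile normalization, centring on medians, limma's trend and robust options, weighted arrays, averaging over probes, fitting the compared groups alone, and dropping each array.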

Additional observations from a re-analysis of the deposited data

How the results depend on the processing

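Arntl, Per1, Per2 and Per3 kept their direction and passed limma for time over both treatments under every alternative that tested them (Arntl 1.38 to 1.57, Per1 -1.98 to -1.62, Per2 -1.33 to -1.17, Per3 -1.29 to -1.10). Arntl was below the stricter filter. Counts of genes called were less stable, and the cause was not tested. For time over both treatments 33 genes became 123 with the robust trend, 73 with the replicate block and 72 with the stricter filter, and 11 to 34 when 1 array was left out. In mepenzolate lungs 4 genes, 2 of them clock genes, became 0 (0 clock genes) with array weights or quantile normalization and 1 (1 clock gene) without a filter or with the compared groups only. The replicate block gave 9 genes, the stricter filter 1 clock gene, and leaving out 1 array 0 to 2 genes and 0 to 1 clock genes. In vehicle lungs 13 genes, 4 of them clock genes, became 55 with array weights, 33 with the robust trend and 7 (2 clock genes) with quantile normalization, and 0 to 14 genes (0 to 4 clock genes) when 1 array was left out. For mepenzolate against vehicle the replicate block gave 1 gene at 25 h, and leaving out 1 array gave 0 to 1 genes at 25 h, 0 to 2 at 7 h, 0 to 2 over both times and 0 to 2 for the interaction, with 0 clock genes under every alternative run.

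Replicate numbers were shared between groups, and no label says what they mark. Replicate 1 deviations correlated over 0.1 in 3 of 6 pairs of groups (0.194, 0.33 and 0.396) and at -0.021 to 0.027 in the 3 pairs with vehicle at 25 h. The numbers were not treated as a pairing, since no label says that they mark a shared animal, batch or day. With the replicate block Per1 in mepenzolate lungs also passed (adjusted p = 0.0309).

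Some treatment estimates, all small beside their errors, changed sign. At 25 h median centring gave 0.00402 for Clock and 0.013 for Nr1d1. Leaving out 1 array gave, at 25 h, Arntl -0.13 to 0.053, Clock -0.13 to 0.084, Cry2 -0.18 to 0.028, Nr1d1 -0.34 to 0.31, Nr1d2 -0.19 to 0.24 and Per1 -0.56 to 0.17. At 7 h it gave Arntl -0.26 to 0.11, Clock -0.13 to 0.11, Cry1 -0.10 to 0.15, Nr1d1 -0.15 to 0.050, Per2 -0.11 to 0.0060 and Per3 -0.23 to 0.069.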
